A study of Mus musculus with 6 samples.

Results

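Transcripts of 9 receptor genes were followed in a multipotent blood progenitor: Csf1r, Csf2ra, Csf2rb, Csf2rb2, Il3ra, Il6ra, Il6st, Il1r1 and Epor. They encode receptor chains for M-CSF, GM-CSF, IL-3, IL-6, IL-1 and erythropoietin. The genes were chosen by symbol, and all 9 were found among the 53677 genes of the deposited table. Short-term hematopoietic stem cells (ST-HSC), sorted from mouse bone marrow by the absence of lineage markers and CD150 and the presence of Kit and CD48, were profiled by poly(A) RNA sequencing. Sca-1 is not part of the gate in the labels. All animals were of the C57BL/6J strain, and their ages are not stated in the labels. Libraries came from 3 wild-type animals (WT, genotype label dnTCF4-/-) and 3 animals with dnTCF4, which is a dominant-negative version of TCF4, a Wnt pathway transcription factor (genotype label dnTCF4+/+). The promoter that drives dnTCF4, and the cells in which it acts, are not named in the labels. Values are RPKM, which are reads scaled to the length of the gene and to the counted reads of the library.

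Most of these receptors share 1 plan. A chain specific for the cytokine pairs with a chain that signals, and the signalling chain carries a Janus kinase that activates STAT factors. Csf2rb, the common beta chain, serves the receptors for GM-CSF, IL-3 and IL-5, each of which adds its own alpha chain. Mice have a further beta chain, Csf2rb2, that serves IL-3 alone. The IL-6 receptor joins Il6ra with the widely shared signalling chain gp130 (Il6st), and the erythropoietin receptor pairs with itself. Csf1r is instead a receptor tyrosine kinase, and Il1r1 signals through the adaptor MyD88. In the marrow these receptors are known for steering progenitors to macrophages, granulocytes, mast cells and red cells, and for responses to infection.

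The beta chain genes Csf2rb (GRCm38 chromosome 15, 78325752 to 78353847) and Csf2rb2 (78282507 to 78305721) lie 20030 bases apart with no other gene of the table between them. Their coding sequences were 2691 and 2637 bases long in GENCODE M21, and 95.2% of 2631 aligned bases were the same. Among stretches of 90 coding bases aligned without a gap, the least similar held 16 differences. It is shown with differing bases in capitals, as a place where reads can be told apart.
Csf2rb: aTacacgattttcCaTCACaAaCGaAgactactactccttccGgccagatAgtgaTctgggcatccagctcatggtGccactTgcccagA
Csf2rb2: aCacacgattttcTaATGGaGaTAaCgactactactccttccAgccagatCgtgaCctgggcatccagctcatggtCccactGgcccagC
Elsewhere the genes shared whole stretches of that length without a difference, such as the following one, from which a read could belong to either gene.
Shared by Csf2rb and Csf2rb2: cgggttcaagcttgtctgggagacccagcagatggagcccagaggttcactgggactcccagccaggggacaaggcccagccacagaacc
Of the distinct 75-base words in the annotated transcripts of Csf2rb, 7.15% also occurred in those of Csf2rb2, and 10.6% in the other direction. With 50-base words the shares were 12.3% and 18.4%. How reads from such stretches were assigned is not stated. Because Csf2rb is the more abundant gene, the share matters most for Csf2rb2. At even coverage of all annotated Csf2rb transcripts, the shared 75-base words would hold 366 of its 5124 reads in WT replicate 1. Csf2rb2 had 397 reads in all there. Over the 6 libraries such reads would equal 48.9% to 92.3% of the reads of Csf2rb2. With 50-base words they would equal 83.8% to 158%. The level of Csf2rb2 is therefore uncertain by a large part, or all, of its value. The Csf2rb reads were recovered with a gene length of 4764 bases, against 7277 exon bases in GENCODE M21. If the shared words lie within that shorter length, these figures are too low.

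The promoters of 7 of the 9 genes were found in the RefSeq table for GRCm38.p6, in 8 windows, and the 250 bases before the start were searched on both strands. The starts are those of RefSeq, and for Il3ra, Csf2ra and Epor they differ from the GENCODE M21 coordinates given below. Most of the Il3ra window (14346245 to 14346494) lies within the GENCODE gene, which starts at 14346275. The Csf2ra window reaches into the GENCODE gene, which ends at 61228429. The TCF/LEF motifs CTTTGAA and CTTTGAT occurred in none of the 7 genes, against 7.48% of 32851 promoter windows. The GATA motifs AGATAA and TGATAA occurred in 3 genes (Il6ra, Epor and Csf2rb2), against 16.6% of windows. The motif GAGGAAG of the ETS family occurred in 2 genes (Csf2ra and Csf2rb2), against 10.6%. A match describes letters only, and a missing match says only that these letters are not in this window. The windows of Epor, Csf2rb2 and Csf2ra are shown because these genes had the largest higher values in dnTCF4. Capitals mark the GATA and ETS motifs, read from either strand, and all 3 genes are on the minus strand.
Epor, chr9:21963577-21963826: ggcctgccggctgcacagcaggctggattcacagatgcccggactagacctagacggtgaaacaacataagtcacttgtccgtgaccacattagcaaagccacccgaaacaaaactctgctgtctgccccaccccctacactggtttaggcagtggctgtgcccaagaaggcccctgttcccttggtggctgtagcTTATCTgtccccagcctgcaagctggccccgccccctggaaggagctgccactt
Csf2rb2, chr15:78305722-78305971: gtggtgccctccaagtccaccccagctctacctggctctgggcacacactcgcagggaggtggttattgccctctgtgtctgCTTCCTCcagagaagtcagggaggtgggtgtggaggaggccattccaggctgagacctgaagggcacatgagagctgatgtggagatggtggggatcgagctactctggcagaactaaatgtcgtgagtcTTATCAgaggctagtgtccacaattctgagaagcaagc
Csf2ra, chr19:61228419-61228668: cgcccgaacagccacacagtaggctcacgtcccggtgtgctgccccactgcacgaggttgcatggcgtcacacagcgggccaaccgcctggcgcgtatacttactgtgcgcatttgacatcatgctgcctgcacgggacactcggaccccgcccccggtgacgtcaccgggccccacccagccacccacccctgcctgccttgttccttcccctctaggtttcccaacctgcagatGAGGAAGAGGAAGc
The GATA motif began 54 bases before the start of Epor and 38 bases before that of Csf2rb2. The ETS motif of Csf2rb2 began 168 bases before the start, and Csf2ra held 2 ETS motifs, 14 and 8 bases before it.

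Libraries held 57400000 to 110900000 counted reads. Of the gate genes, Kit was at 64.2 ± 18.3 RPKM (WT) and 69.1 ± 31.2 RPKM (dnTCF4) (SD, n = 3 each), Cd48 at 900.9 ± 90.6 and 1195 ± 209, and Slamf1, which encodes CD150, at 0.931 ± 0.191 and 0.969 ± 0.218. Tcf7l2, the gene of TCF4, was at 1.51 ± 0.202 RPKM (WT) and 2.31 ± 0.425 RPKM (dnTCF4), and the labels do not say whether transgene reads would be assigned to it. Immunoglobulin genes took 6.96% to 14.3% of reads in WT and 0.705% to 1.49% in dnTCF4. In dnTCF4 replicate 3 the value was the highest or lowest of the 6 libraries for 67.0% of tested genes, and for 7 of the 9 receptor genes. Over the tested genes the middle log2 fold change was 0.14 on the deposited scale and -0.052 after median ratio scaling.

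None of the receptor genes passed the test between the genotypes. Of the 9, 6 averaged 1 RPKM or more and entered the test (limma on log2 of RPKM plus 1, adjusted over all genes tested). Of these 6, 0 were called, against 0.300% of 11326 genes, and 0 had an unadjusted p under 0.05, against 9.62%. By voom on recovered reads 0 of the 5 genes it covered were called and 0 had such a p. For 0 of the 9 genes were the WT and dnTCF4 values separate, against 17.7% of tested genes (15.4% with dnTCF4 higher and 2.26% with dnTCF4 lower) and 12.7% of 30670 genes without a filter. By direction, 0.0441% of tested genes were called with a higher and 0.256% with a lower level in dnTCF4, and without a filter 0.0196% were called. In pairs of libraries with the same replicate number, Csf2ra and Epor were higher in dnTCF4 in 3 of 3 and Il1r1 was lower in 3 of 3. The share of all genes with such agreement was not counted. Of 11326 tested genes, 7759 had a positive log2 fold change. With the replicate number as a block, Csf2ra, Epor and Il1r1 had an unadjusted limma p under 0.05. Their limma adjusted p was 0.31, 0.46 and 0.33, in that order. In that blocked fit 14.9% of the 11326 tested genes had such a p, and 9.68% of genes without a filter, the fit used for Epor.

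**Figure D1:**
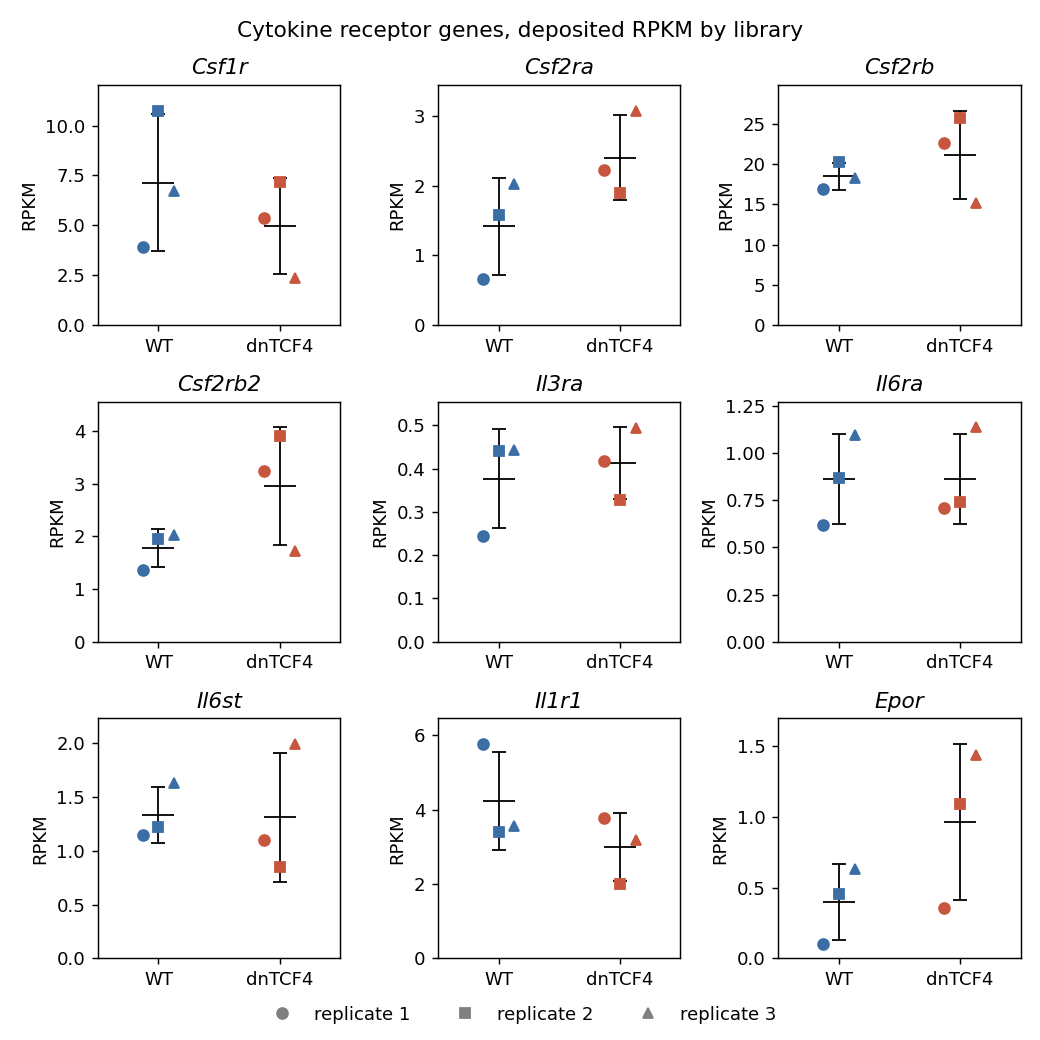
RPKM of each receptor gene (vertical axes, from 0) in WT (blue) and dnTCF4 (red) libraries, with replicate numbers as symbols, the mean as a horizontal line and the SD as bars (n = 3). The groups overlapped in all 9 panels, and Csf2rb had the highest level, at 15.1 to 25.8 RPKM.

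The order of the levels was much alike in both genotypes. In WT it ran from Csf2rb (18.5 ± 1.67 RPKM, SD, n = 3) through Csf1r (7.14 ± 3.43), Il1r1 (4.24 ± 1.32), Csf2rb2 (1.78 ± 0.367), Csf2ra (1.42 ± 0.700), Il6st (1.33 ± 0.258), Il6ra (0.861 ± 0.238) and Epor (0.397 ± 0.269) to Il3ra (0.376 ± 0.115). Neighbours were separate in every WT library between Csf2rb and Csf1r, between Il1r1 and Csf2rb2, and between Il6st and Il6ra, while the other neighbours overlapped. In dnTCF4 Epor stood before Il6ra, and neighbours were separate only between Csf2rb and Csf1r and between Il6ra and Il3ra. Csf2rb lay above 75.1% of tested genes by its mean, Csf1r above 50.9% and Il6st above 7.55%.

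Csf2rb (ENSMUSG00000071713) measured 16.9, 20.3 and 18.3 RPKM in the WT libraries, in the order of their replicate numbers, and 22.7, 25.8 and 15.1 in the dnTCF4 libraries, from 4141 to 13629 reads. dnTCF4 replicates 1 and 2 lay above all WT libraries, and dnTCF4 replicate 3 lay below them all. The log2 fold change was 0.16 (SE 0.23, 95% interval -0.38 to 0.70, limma adjusted p = 0.78). It turned to -0.064 after median ratio scaling and ranged from 0.0068 without dnTCF4 replicate 2 to 0.37 without dnTCF4 replicate 3 (limma adjusted p = 0.99 and 0.65).

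Csf2rb2 (ENSMUSG00000071714) measured 1.36, 1.95 and 2.02 RPKM (WT) against 3.24, 3.90 and 1.73 RPKM (dnTCF4), from 397 to 1995 reads. As for Csf2rb, dnTCF4 replicates 1 and 2 lay above all WT libraries, while dnTCF4 replicate 3 lay within the WT range. Its log2 fold change was 0.48 (SE 0.25, 95% interval -0.11 to 1.06, limma adjusted p = 0.60). It was 0.30 without dnTCF4 replicate 2 and 0.72 without dnTCF4 replicate 3 (limma adjusted p = 0.61 and 0.35). Over the 6 libraries the log2 values of both beta chain genes correlated at 0.90, a description of 6 points that share depth and, in part, sequence.

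The balance of the beta chains was compared within each library. Csf2rb exceeded Csf2rb2 by a ratio of 12.5, 10.4 and 9.04 in WT and of 6.99, 6.61 and 8.75 in dnTCF4. All 3 dnTCF4 ratios lay below the 3 WT ratios, with means of 10.6 ± 1.74 and 7.45 ± 1.14 (SD, n = 3 each). A factor applied to a whole library leaves such a ratio as it is. Reads from the shared stretches, which could make up much or all of the Csf2rb2 count, do not. Their part in the ratio was not tested. The ratio itself was not tested, and it was the 1 of 5 fixed ratios between partner chains whose groups were separate.

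The alpha chains that join Csf2rb were rarer than it. Csf2ra (ENSMUSG00000059326; chromosome 19, 61223957 to 61228429), specific for GM-CSF, measured 0.656, 1.58 and 2.03 RPKM (WT) against 2.23, 1.90 and 3.08 RPKM (dnTCF4), from 77 to 390 reads. Every replicate number had its higher value in dnTCF4, and WT replicate 3 lay above dnTCF4 replicate 2. The log2 fold change was 0.52 (SE 0.26, 95% interval -0.088 to 1.13, limma adjusted p = 0.58). Median ratio scaling gave 0.38, and the value ranged from 0.27 without WT replicate 1, the lowest library, to 0.71 without WT replicate 3. Csf2rb exceeded Csf2ra by a mean ratio of 15.9 ± 8.81 in WT and 9.55 ± 4.36 in dnTCF4, and these ratios overlapped.

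Il3ra (ENSMUSG00000068758; chromosome 14, 14346275 to 14356011), the alpha chain for IL-3, was the least abundant in both genotypes. It measured 0.244, 0.442 and 0.443 RPKM (WT) against 0.417, 0.328 and 0.493 RPKM (dnTCF4), from 46 to 108 reads. WT replicate 1 was the lowest library and dnTCF4 replicate 3 the highest, and the other 4 lay between. Without a filter on low values the log2 fold change was 0.039 (SE 0.098, 95% interval -0.20 to 0.28, limma adjusted p = 0.90). Its exons overlap those of an antisense gene outside the table, Gm48860, by 46 bases, and library chemistry that does not mark strand cannot tell such reads apart.

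Il5ra, the alpha chain for IL-5, is a partner of Csf2rb outside the 9 genes and had the largest difference among the related receptors. It measured 3.11, 1.18 and 1.25 RPKM (WT) against 0.417, 0.141 and 0.146 RPKM (dnTCF4), from 30 to 705 reads. Every dnTCF4 library lay below every WT library. The log2 fold change was -1.15 (SE 0.26), which did not pass after adjustment (limma adjusted p = 0.19, and 0.076 to 0.44 over the alternatives in which it was tested). The summed level of 11 B and plasma cell markers was also lower in dnTCF4, with 8004, 2816 and 2728 RPKM (WT) against 804.3, 402.9 and 784.0 RPKM (dnTCF4). Most of this sum was Jchain, with 7568 of the 8004 RPKM in WT replicate 1. Of the 8 markers tested, 4 were separate and lower, against 2.26% of tested genes. The other tested markers overlapped, among them Cd79b at 103.2 ± 17.8 (WT) and 109.3 ± 15.6 RPKM (dnTCF4). None of the 11 was at 0 in all libraries. Of 9 tested mast cell and basophil markers, 3 were also separate and lower, against 2.26% of tested genes: Mcpt8 (105.1 ± 22.4 RPKM in WT, 51.9 ± 11.02 in dnTCF4), Prss34 (162.1 ± 66.5, 56.8 ± 8.77) and Fcer1a (23.6 ± 3.93, 11.7 ± 6.55), proteases and the IgE receptor chain of basophils and mast cells. The list as a whole did not go 1 way: 5 of the 9 lay higher in dnTCF4 and 4 lower, with a median log2 fold change of 0.24. The part of these markers in the Il5ra difference was not tested. In bulk samples, fewer cells of a type and less RNA per cell cannot be told apart.

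**Figure D2:**
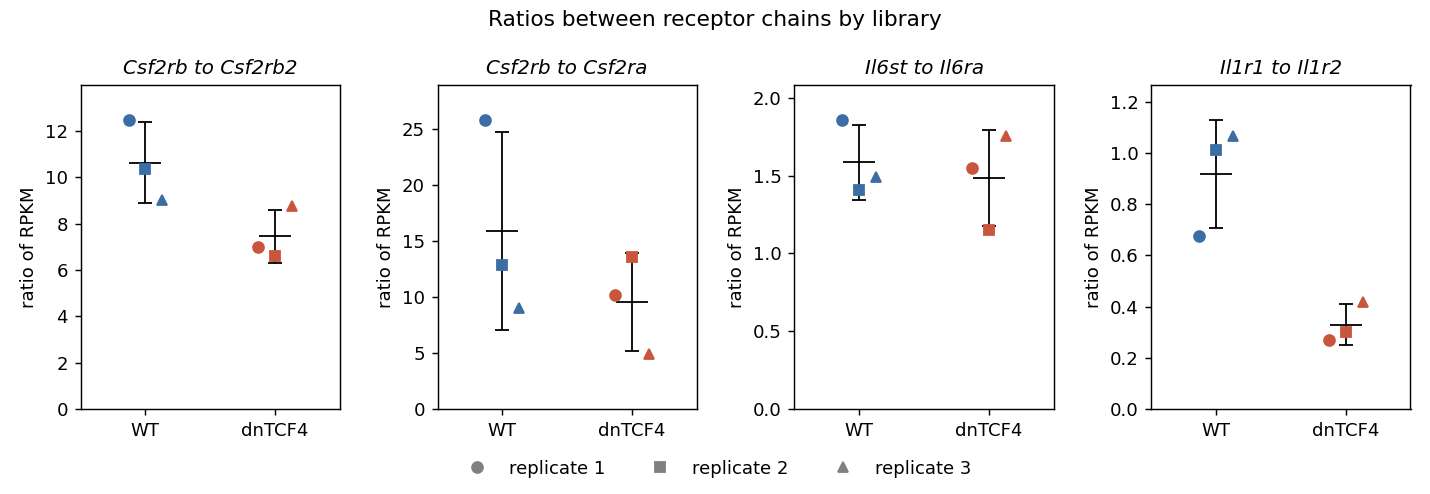
Ratio of RPKM between receptor chains in each library (vertical axes, from 0), with replicate numbers as symbols, the mean as a line and the SD as bars (n = 3). The ratios of Csf2rb to Csf2rb2 and of Il1r1 to Il1r2 were separate between WT and dnTCF4, and those of Csf2rb to Csf2ra and of Il6st to Il6ra overlapped.

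Csf1r (ENSMUSG00000024621; chromosome 18), the M-CSF receptor of the macrophage lineage, measured 3.92, 10.8 and 6.74 RPKM (WT) against 5.37, 7.15 and 2.37 RPKM (dnTCF4), from 665 to 3874 reads. It varied widely within each genotype, with replicate 2 the highest in both. The log2 fold change was -0.45 (SE 0.42, 95% interval -1.43 to 0.53, limma adjusted p = 0.72). Without dnTCF4 replicate 3, the lowest library, it was -0.086, and without WT replicate 1 it was -0.77. The summed level of 13 monocyte and macrophage markers went the other way, at 217.7 to 270.5 RPKM in WT and 293.1 to 385.7 in dnTCF4. The sum was highest in dnTCF4 replicate 3, but its members differed. Cd68 (108.7 RPKM) and Ms4a6c (116.6) were highest in that library, while Cd14 (0.721) and C1qb (1.46) were lowest there, as Csf1r was. The part of these markers in the level of Csf1r was not tested. Of the exon bases of Csf1r, 873 of 5774 overlap exons of Hmgxb3 on the opposite strand, and reads there cannot be assigned without strand. The Csf1r reads were recovered with a gene length of 4885 bases, and whether that length includes the overlap is not known.

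Both chains of the IL-6 receptor were low, with differences near 0. Il6ra (ENSMUSG00000027947; chromosome 3, 89864059 to 89913196), which binds IL-6, measured 0.620, 0.867 and 1.10 RPKM (WT) against 0.710, 0.740 and 1.14 RPKM (dnTCF4), from 340 to 709 reads. Its value was highest in replicate 3 and lowest in replicate 1 in both genotypes, and the group means were 0.861 and 0.862. Without a filter the log2 fold change was 0.0011 (SE 0.17, 95% interval -0.42 to 0.42, limma adjusted p = 1.00). The antisense gene Gm42809 overlaps 242 of its 8642 exon bases.

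Il6st (ENSMUSG00000021756; chromosome 13, 112464070 to 112510086), the gp130 chain shared by the IL-6 cytokine family, measured 1.15, 1.22 and 1.63 RPKM (WT) against 1.10, 0.853 and 1.99 RPKM (dnTCF4), from 769 to 1269 reads. Replicate 3 was again the highest in both genotypes. The log2 fold change was -0.037 (SE 0.21, 95% interval -0.53 to 0.46, limma adjusted p = 0.94). Il6st exceeded Il6ra by a ratio of 1.59 ± 0.240 in WT and 1.49 ± 0.306 in dnTCF4, and these ratios overlapped. These intervals are on log2 of RPKM plus 1, which compresses genes near 1 RPKM. In voom, without that pseudocount, the SE was 0.32 for Il6ra and 0.35 for Il6st, so similar means do not show that the genotypes are alike.

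Il1r1 (ENSMUSG00000026072; chromosome 1, 40225080 to 40317257), the signalling IL-1 receptor, measured 5.76, 3.39 and 3.57 RPKM (WT) against 3.79, 2.00 and 3.18 RPKM (dnTCF4), from 1162 to 2326 reads. Every replicate number had its lower value in dnTCF4, while dnTCF4 replicate 1 lay above WT replicates 2 and 3. The log2 fold change was -0.39 (SE 0.26, 95% interval -0.99 to 0.21, limma adjusted p = 0.66), and -0.58 after median ratio scaling. It was -0.19 without WT replicate 1, -0.20 without dnTCF4 replicate 2 and -0.24 with library weights. Replicate 1 was the highest library of each genotype. The summed level of 7 T cell markers was also high there, at 65.6 RPKM in WT replicate 1 and 56.4 in dnTCF4 replicate 1 against 17.4 to 23.2 in the other 4 libraries. Most of this sum was Lck, with 59.9 of the 65.6 RPKM and 50.4 of the 56.4 RPKM. The part of these markers in the level of Il1r1 was not tested.

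Other IL-1 receptor genes were read beside Il1r1. Il1r2, a decoy receptor that binds IL-1 without signalling, measured 8.51, 3.34 and 3.34 RPKM (WT) against 14.1, 6.68 and 7.59 RPKM (dnTCF4). Every replicate number had its higher value in dnTCF4, and the groups overlapped (log2 fold change 0.83, SE 0.39, limma adjusted p = 0.57). The ratio of Il1r1 to Il1r2, chosen after these values were seen, was 0.676, 1.01 and 1.07 in WT and 0.268, 0.299 and 0.419 in dnTCF4. All 3 dnTCF4 ratios lay below the WT ratios, with means of 0.919 ± 0.211 and 0.329 ± 0.0798 (SD, n = 3 each), and no test was made. The accessory chain Il1rap was at 3.47 ± 0.318 (WT) and 3.94 ± 1.84 RPKM (dnTCF4), and the ratio of Il1r1 to it overlapped between the genotypes.

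Epor (ENSMUSG00000006235; chromosome 9, 21958897 to 21963506), the erythropoietin receptor of red cell precursors, measured 0.103, 0.456 and 0.631 RPKM (WT) against 0.359, 1.09 and 1.44 RPKM (dnTCF4). These values rest on 13, 56 and 85 reads in WT and 45, 240 and 164 in dnTCF4. Every replicate number had its higher value in dnTCF4, and dnTCF4 replicate 1 lay below WT replicates 2 and 3. Without a filter the log2 fold change was 0.47 (SE 0.27, 95% interval -0.21 to 1.14, limma adjusted p = 0.75). It ranged from 0.29 without dnTCF4 replicate 3 to 0.71 without dnTCF4 replicate 1 (limma adjusted p = 0.90 and 0.50). With counted reads in voom, which does not add a pseudocount of 1 RPKM, it was 1.41 (SE 0.74, adjusted p = 0.70).

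Genes of red cell precursors followed a partly similar order of libraries. The summed level of 12 erythroblast markers measured 113.8, 338.3 and 304.8 RPKM (WT) against 336.4, 456.9 and 450.8 RPKM (dnTCF4), and 0 of the 12 were at 0 in all libraries. Most of this sum was Car1, a carbonic anhydrase, with 94.6 of the 113.8 RPKM in WT replicate 1, and its groups overlapped. Of the 7 markers tested, 0 were called by limma, against 0.300% of all genes, and 4 had an unadjusted p under 0.05, against 9.62%. Those 4 (Rhag, Hbb-bt, Hbb-bs and Klf1) were separate and higher in dnTCF4, against 15.4% of tested genes. Rhag was at 3.92 ± 0.670 (WT) and 16.9 ± 6.30 RPKM (dnTCF4). The other 8 overlapped, among them Alas2 at 0.267 ± 0.265 and 0.245 ± 0.128 RPKM, Hba-a1 at 0.280 ± 0.224 and 0.244 ± 0.1004, and Slc4a1 at 0.0306 ± 0.0154 and 0.0349 ± 0.0400. Their part in the level of Epor was not tested.

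**Figure D3:**
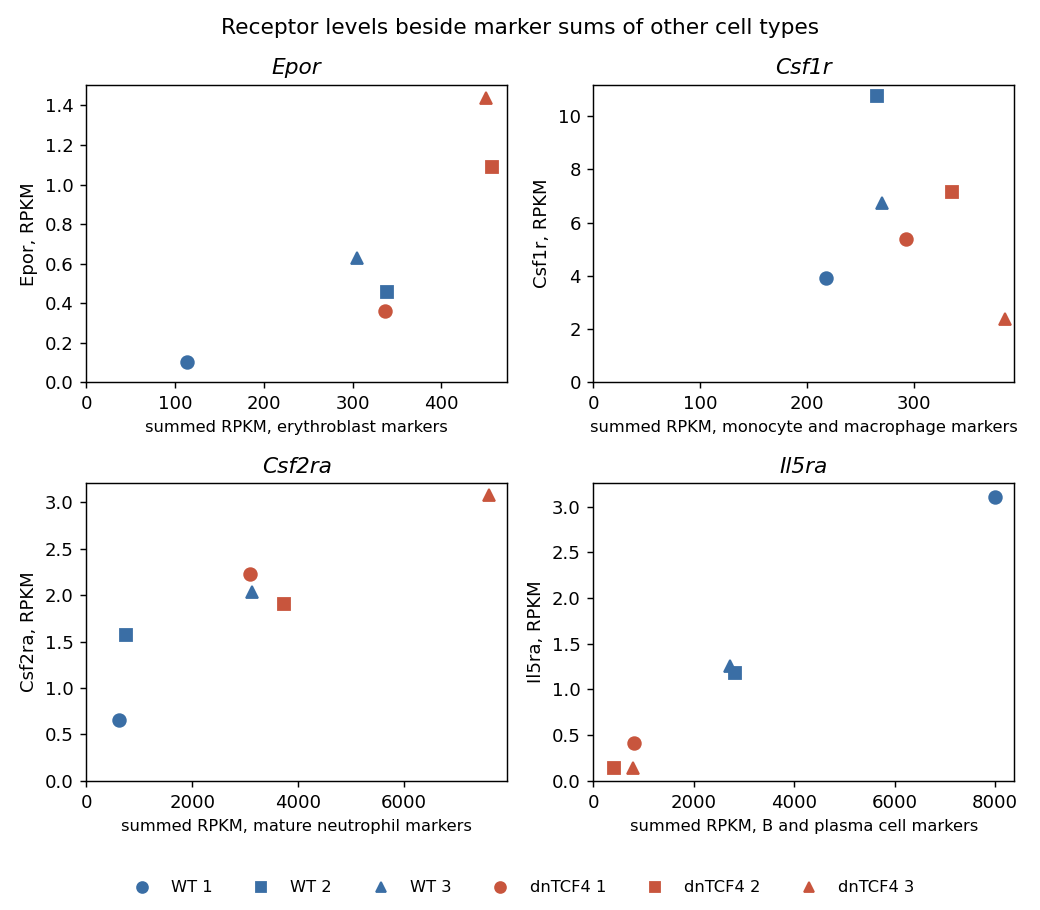
RPKM of 4 receptor genes (vertical axes) against the summed RPKM of markers of another cell type (horizontal axes) in the 6 libraries, WT in blue and dnTCF4 in red, replicate numbers as symbols. Epor was lowest in the library with the lowest erythroblast marker sum (113.8 RPKM). Csf1r was lowest in dnTCF4 replicate 3, where the monocyte marker sum, though not every marker in it, was highest (385.7 RPKM). Il5ra was highest in WT replicate 1, where the B and plasma cell marker sum, mostly Jchain, was highest (8004 RPKM).

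**Figure D4:**
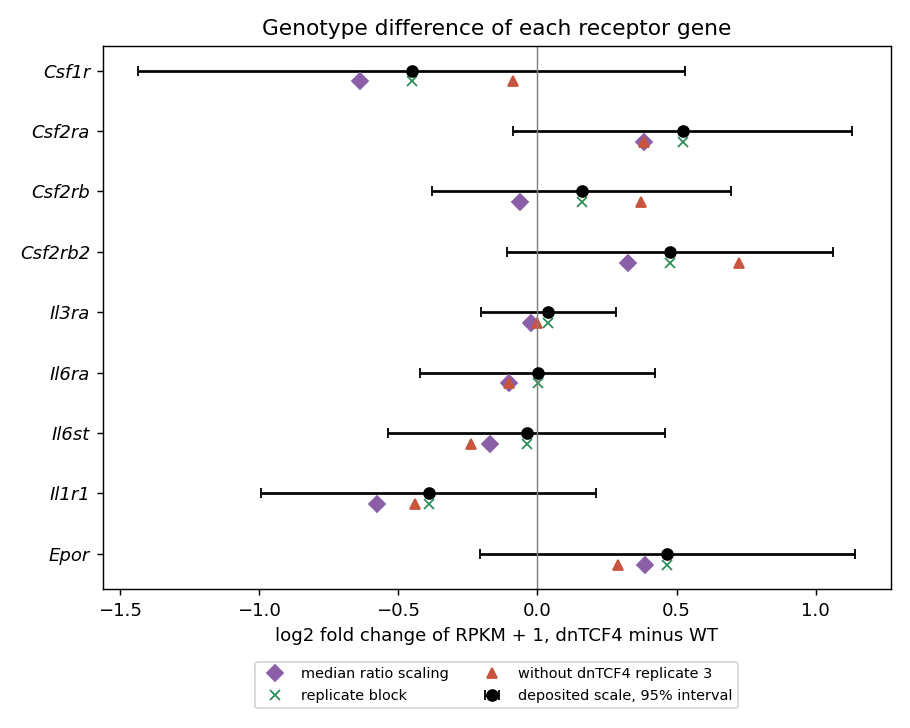
Log2 fold change of RPKM plus 1, dnTCF4 minus WT (horizontal axis), for each receptor gene, with the 95% interval of the limma fit as bars and values after median ratio scaling, with the replicate block and without dnTCF4 replicate 3 as symbols. The intervals are from the fit without the block. Each of them spans 0, and Csf2rb lies on either side of 0 depending on the scaling (0.16 and -0.064).

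By neutrophil markers the libraries were ordered partly as by Csf2ra. The summed level of 11 mature neutrophil markers measured 623.3, 757.9 and 3133 RPKM (WT) against 3087, 3741 and 7604 RPKM (dnTCF4). Csf2ra was likewise lowest in WT replicates 1 and 2 and highest in dnTCF4 replicate 3. So were the library factors of median ratio scaling, at 0.830, 0.930 and 1.19 in these libraries. The part of scaling in this order was not tested. Much of the marker sum was S100a8 and S100a9, with 2948 and 2601 of the 7604 RPKM. Cxcr2 had a lower mean in dnTCF4 (11.1 ± 4.20 in WT, 9.47 ± 2.64 in dnTCF4), and the other 9 tested markers lay higher. Mast cell and basophil markers, of cells known for Csf2rb and Il3ra, summed to 374.6 to 594.8 RPKM in WT and 319.4 to 545.9 in dnTCF4. This sum hides opposite differences: Mcpt8, Prss34 and Fcer1a were lower in dnTCF4, while Cpa3 (161.4 ± 33.4 and 245.4 ± 74.7 RPKM), Cma1 (6.61 ± 1.83 and 19.1 ± 11.9) and Il1rl1 (1.00 ± 0.186 and 2.19 ± 1.01) had higher means with overlapping groups. None of these markers was at 0 in all libraries, and their part in the receptor levels was not tested.

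The receptor genes did not vary as 1 group. For each of the 6 tested genes the most similar genes were sought by Pearson correlation of log2 values over the 6 libraries, a description in which all points share depth and scaling. Csf1r was most like Slc25a22, Cenpp and Pank4 (all 1.00 after rounding), and Il6st most like Arhgef18 (1.00), Ssr4 and Hs2st1 (both 0.99). Csf2ra was most like AC122539.3 (a gene known by its clone name), Tmem161a and Actb (all 0.99), and Csf2rb most like Mtfr2 (0.99), Arhgap30 and Cd14 (both 0.98). Csf2rb2 was most like Izumo4 (0.99), Add3 and Tbxas1 (both 0.98), and Il1r1 most like Them7 (0.97), Wfdc17 (0.96) and Tcrg-C2 (0.95). Within the 9 genes, Csf2rb and Il6st ran opposite to each other (-0.84), as did Il1r1 and Epor (-0.79), while Il6ra ran with Il6st (0.86) and Csf2ra with Il3ra (0.85).

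Ligands of these receptors were scarce in the sorted cells. Of 14 ligand genes, 1 reached the mean of 1 RPKM: Osm, the gp130 cytokine oncostatin M, at 0.975 ± 0.301 RPKM (WT) and 1.55 ± 0.0949 RPKM (dnTCF4), with separate groups (log2 fold change 0.38, SE 0.16, limma adjusted p = 0.52). Il3, Epo and Thpo were listed at 0 in all 6 libraries. Csf1, the main ligand of Csf1r, measured 0.358, 0.395 and 0.612 RPKM (WT) against 0.201, 0.186 and 0.224 RPKM (dnTCF4), also separate and below the level for testing (limma adjusted p without a filter = 0.55). Il1rn, the IL-1 receptor antagonist, at 0.230 ± 0.122 and 0.551 ± 0.122 RPKM, and Il11, at 0.0124 ± 0.0152 and 0.0626 ± 0.0157, were separate with dnTCF4 higher. In total, 4 of the 11 ligand genes with reads were separate, against 12.7% of genes without a filter. Csf2, which encodes GM-CSF, was at 1.28 RPKM in WT replicate 1 and 1.05 in dnTCF4 replicate 1, against 0 to 0.174 in the other 4 libraries. The same 2 libraries had the high T cell marker sums.

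Downstream genes showed 0 calls as well. Of 71 pathway genes, 48 were tested and 0 were called by limma, against 0.300% of all genes. Of the 48, 4 had an unadjusted p under 0.05 (Il5ra, Csf3r, Osm and Pik3r1), near the 9.62% of all tested genes. By voom 0 of 45 were called and 3 had such a p, against 9.31% of 9994 genes. The median log2 fold change of the 48 was 0.13, against 0.14 for all genes tested, and 32 of 48 lay higher in dnTCF4, as did 7759 of 11326 overall. After median ratio scaling 21 of 48 were higher, with a median of -0.043.

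The partner and related receptors had a median log2 fold change of -0.045 over 9 tested genes. Csf3r, the G-CSF receptor, was at 118.2 ± 5.95 RPKM (WT) and 75.3 ± 26.5 RPKM (dnTCF4) (limma adjusted p = 0.51). All 7 tested Janus kinase and STAT genes lay higher in dnTCF4 (median 0.22 on the log2 scale, or 0.012 after median ratio scaling). Jak1, a kinase bound to gp130, measured 23.8, 19.5 and 23.7 RPKM (WT) against 26.8, 27.9 and 37.9 RPKM (dnTCF4), with separate groups (log2 fold change 0.44, SE 0.20, limma adjusted p = 0.55). Jak2, the kinase of Epor and Csf2rb, was at 5.09 ± 1.55 RPKM and 6.53 ± 1.78 RPKM in the same order (a log2 difference of 0.31 with limma adjusted p = 0.71).

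Genes of IL-1 receptor signalling had a median of 0.14 over 10 genes, with Map3k7, a kinase below the receptor, at 1.86 ± 0.241 (WT) and 2.59 ± 0.515 RPKM (dnTCF4; limma adjusted p = 0.60) and Irak2 at 1.62 ± 0.120 and 2.13 ± 0.457 (0.68). The values that follow are in the same order, with the limma adjusted p in parentheses. Adaptors and genes of RAS and PI3K signalling had a median of 0.15 over 10 genes. Pik3r1, a regulatory subunit of PI3K, was at 5.59 ± 0.458 and 8.32 ± 2.02 RPKM, with separate groups (limma adjusted p = 0.52), and Gab1 was at 2.15 ± 0.260 and 3.25 ± 0.846 (0.57). Negative regulators had a median of 0.15 over 5 genes, with Sh2b3, a brake on JAK2, at 5.44 ± 1.00 and 7.24 ± 2.04 (0.69) and Cbl at 2.38 ± 0.527 and 3.21 ± 1.26 (0.71). Of the response genes of STAT5 and STAT3, 6 were tested, with a median of 0.19, among them Mcl1 at 16.1 ± 3.32 and 20.8 ± 3.11 (0.64) and Pim2 at 1.30 ± 0.196 and 1.94 ± 0.939 (0.70). Cish and Socs1 to Socs3, genes induced by these receptors, were under the level for testing. Scaled by median ratio, these medians were -0.065 for IL-1 signalling, -0.0068 for adaptors, -0.0054 for negative regulators and -0.015 for response genes.

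**Figure D5:**
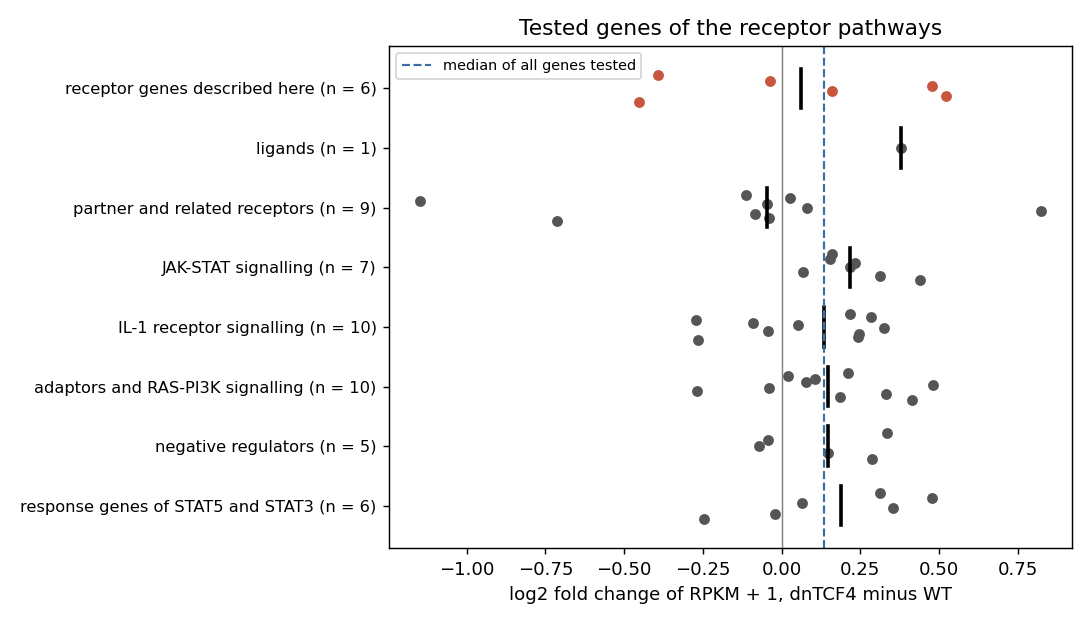
Log2 fold change of RPKM plus 1, dnTCF4 minus WT (horizontal axis), of each tested gene (points) in the receptor group (red) and the pathway lists (grey), with list medians as black bars and the median of all genes tested, 0.14, as a dashed line. The lowest point, Il5ra at -1.15, and the highest, Il1r2 at 0.83, are both in the list of partner and related receptors.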

How the data were processed

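The authors deposited RPKM values of 53677 genes, 1 column per library. The submitters' processing notes list mm10 and GRCm38 as builds and edgeR, DESeq2, featureCounts and STAR as tools, without roles or versions. The annotation is not given in the sources used. Genes and lists were chosen with earlier results of these data known. Columns were matched to samples by the sample descriptions, and Ensembl identifiers and coordinates were taken from GENCODE M21 by symbol. RPKM times GENCODE M21 exon length fell within 0.02 of whole reads for 94.4% to 95.2% of genes per library, which gave the depth. For the 9 receptor genes and Il5ra and Il1r2, the shortest gene length that made all 6 libraries whole gave the reads, and it differed from GENCODE for Csf1r, Csf2ra, Csf2rb and Csf2rb2. Reads were amplified and carry no molecular identifiers, so they do not count molecules.

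Genes averaging 1 RPKM or more were tested, two-sided, by limma 3.58.1 (R 4.3.3) with an intensity trend on log2(RPKM + 1), with genotype as the only term, Benjamini-Hochberg adjustment and a threshold of 0.05. Fold changes on this scale understate changes of low genes. Il3ra, Il6ra and Epor, under 1 RPKM, were read from a fit without a filter. On simulated data the test found 69 of 100 genes changed 4-fold and 15 of 100 changed 2-fold between dnTCF4 and WT, with 2 false calls among 11126 unchanged genes. The changed genes were drawn only from genes averaging more than 5 RPKM. Of the receptor genes only Csf2rb and Csf1r lie above that level, so these shares do not cover the others. After subtracting group means, WT and dnTCF4 libraries sharing a number correlated at 0.17 (number 1), 0.35 (number 2) and 0.30 (number 3). Libraries with different numbers correlated at -0.33 to 0.091. Deviations from a group mean sum to 0, so these correlations are not independent and are weak grounds for pairing. Each value for a shared number exceeds 0.1, so the numbers were taken to pair the libraries in an alternative fit with the number as a block. The main SEs, intervals and p-values come from the fit without the block. With the block the SE of each of the 9 genes was smaller, for Epor 0.11 against 0.27. Named besides the 9 genes are pathway genes with the smallest p in each list (at most 2) and the 3 genes most like each tested receptor, passing over immunoglobulin genes and symbols of the Gm and Rik kinds. Il1r2, Il1rap, Csf1, Csf2, Il1rn, Il11, the erythroblast, mast cell and basophil markers and the ligands listed at 0 were named after their values were seen. Alternatives were median ratio scaling, leaving out immunoglobulin genes, quantile scaling, other pseudocounts and filters, the block, library weights, voom and leaving out each library. Python 3.11.15, pandas 2.3.3, Biopython 1.88 and matplotlib 3.10.9 were used for tables, alignment and plots. 1 gene that the naming rule includes is not reported here.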

Additional observations from a re-analysis of the deposited data

How the results depend on the processing

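None of the 9 receptor genes was called in the 121 alternative fits of a receptor gene. The direction of Csf1r, Csf2ra, Csf2rb2, Il1r1 and Epor was kept in all of theirs. Median ratio scaling reversed Csf2rb (log2 fold change -0.064), Il3ra (-0.023) and Il6ra (-0.10). Il3ra was also reversed by quantile scaling (-0.020) and library weights (-0.00053). Il6ra was also reversed by quantile scaling (-0.081), library weights (-0.059), voom (-0.0087) and leaving out immunoglobulin genes (-0.056). Leaving out 1 library moved Il3ra from -0.032 to 0.083, Il6ra from -0.10 to 0.091 and Il6st from -0.24 to 0.11. The causes were not tested. Voom gave no value for Csf1r, Csf2ra, Csf2rb and Csf2rb2, whose reads were not whole at the GENCODE length. With the replicate block, the pairing changed no call of a receptor gene: adjusted p was 0.51 for Csf1r, 0.31 for Csf2ra, 0.69 for Csf2rb and 0.40 for Csf2rb2, with 49 genes called over the table.

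Of all genes tested, 34 were called. The count was 18 after median ratio scaling, 86 with library weights, 4 by voom, 6 without a filter and 0 with immunoglobulin genes left out (671 with an unadjusted limma p under 0.05). It ranged from 7 to 34 when 1 library was left out, with 7 without WT replicate 1, 18 without WT replicate 3, and 22, 16 and 11 without dnTCF4 replicates 1, 2 and 3. The count of called pathway genes, added after the data were seen, was 0 in all 15 alternatives. Depth limits Epor and Il3ra most, with as few as 13 and 46 reads in a library.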
